A study of Mesocricetus auratus with 6 samples.

Results

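The platelet-derived growth factor (PDGF) genes were followed in the uterus of the golden hamster on day 5 of pregnancy, together with the related receptor gene KIT and its ligand gene KITLG. The set held 9 genes, PDGFA, PDGFB, PDGFC, PDGFD, PDGFRA, PDGFRB, PDGFRL, KIT and KITLG, and was chosen by the fall of PDGFRA at implantation sites in these same arrays. Every probe set whose platform annotation named one of these genes alone was included and read separately, which gave 17 of 22215 probe sets on the array. The contrast that led to the choice is the one described below, so the values of the members are given as a description. How many of them passed the threshold of the fit over all probe sets is stated beside the share of the whole array, and supports nothing.

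Pregnant Syrian golden hamsters (Mesocricetus auratus) without treatment provided the tissue, and the sources used here give no genotype, strain or age. An implantation site is a piece of uterus that held an embryo, an interimplantation site a piece of uterus between embryos, and the labels do not say whether the embryo was removed. Each group had 3 arrays, labelled as biological replicates 1 to 3. The design text speaks of 3 animals without tying any array to an animal, so a p-value reflects how far these arrays spread, which may be partly technical.

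PDGFs are paired-chain ligands that act mainly on mesenchymal cells. PDGF-A, PDGF-B and PDGF-C chains bind receptor alpha, encoded by PDGFRA, while PDGF-B and PDGF-D bind receptor beta, encoded by PDGFRB. Binding brings the chains of a receptor tyrosine kinase together, and the phosphorylated receptor recruits enzymes and adaptors of the phospholipase C, PI3-kinase and RAS pathways. Receptor alpha is widely used as a marker of fibroblasts and stromal progenitors and receptor beta as a marker of pericytes and vascular smooth muscle. KIT belongs to the same class III of receptor tyrosine kinases and, with its ligand KITLG (stem cell factor), serves mast cells, germ cells, melanocytes and interstitial cells of Cajal.

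The Affymetrix array that received the hamster RNA was designed on human transcripts. A dim probe set can therefore mean little transcript or a poor match between the species, and neither absence nor the lack of a change can be read from it. Values are log2 RMA values, which run from 1.65 to 12.1 over the array, with a median of 4.19 over the means of all probe sets. Array medians lay between 4.18 and 4.20. Arrays of one group correlated at 0.989 to 0.995 and arrays of different groups at 0.985 to 0.992, and no array stood apart. Among uterine tissue markers, the fibroblast collagen gene COL1A1 averaged 10.42 and 9.85 at its brightest probe set in implantation and interimplantation sites, and the smooth muscle actin gene ACTA2 averaged 6.46 and 6.30.

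PDGFRA was lower at implantation sites at its bright probe set, and the other 16 probe sets of the family differed far less between the sites. Probe set 203131_at of PDGFRA read 7.88, 8.14 and 7.94 in implantation sites 1 to 3 and 8.58, 8.80 and 8.55 in interimplantation sites 1 to 3. The groups did not overlap, and a gap of 0.41 separated the highest implantation array from the lowest interimplantation array. The means were 7.99 ± 0.13 and 8.64 ± 0.13 (SD, n = 3 arrays per group), a log2 difference of −0.66 ± 0.09 (SE of limma's fit; 95% interval −0.86 to −0.45), or 1.57-fold lower. In pieces of tissue, fewer cells of a type and less RNA per cell cannot be told apart. This probe set was brighter than most, at the 99.5th percentile of all probe set means, and 34 probe sets of the array had a larger fall. Replicate 2 was the highest array in each group.

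**Figure D1:**
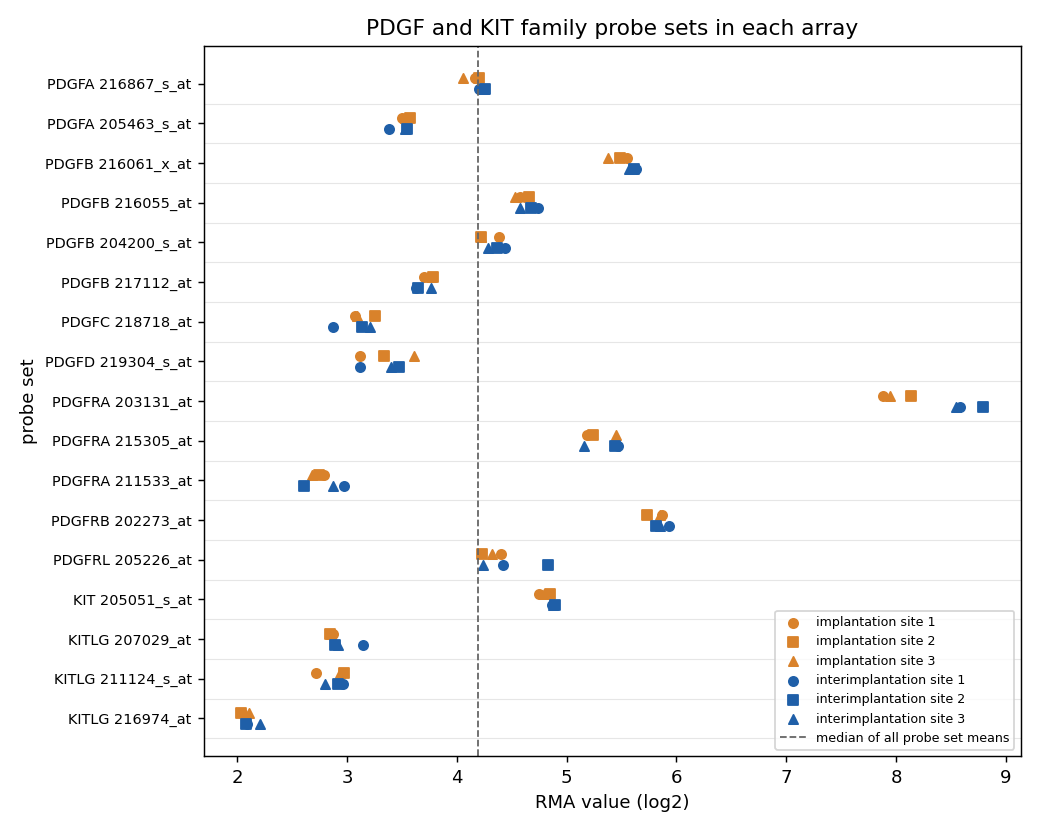
RMA values (log2, horizontal axis) of the 17 probe sets in each of the 6 arrays, orange for implantation and blue for interimplantation sites, with a marker shape per replicate number and a dashed line at the median of all probe set means. PDGFRA 203131_at, between 7.88 and 8.80, is the one row in which the colours are separated by a wide gap.

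The other probe sets annotated to PDGFRA did not show a difference of that size. Probe set 215305_at read 5.19, 5.24 and 5.45 in implantation sites and 5.46, 5.44 and 5.16 in interimplantation sites. The groups overlapped, with a log2 difference of −0.06 ± 0.10 (SE; 95% interval −0.28 to 0.17). Probe set 211533_at was dim, with 2.79, 2.74 and 2.68 against 2.97, 2.61 and 2.87. Its groups overlapped too, at a difference of −0.08 ± 0.10 (SE; 95% interval −0.29 to 0.13). Neither interval reaches the −0.45 that bounds the interval of 203131_at. The mean of all 3 probe sets was lower by a log2 difference of −0.26, and how well each matches the hamster transcript was not tested.

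PDGFRB, the gene of receptor beta, was nearly level between the sites. Its probe set 202273_at read 5.87, 5.73 and 5.85 in implantation sites and 5.93, 5.81 and 5.85 in interimplantation sites. The groups overlapped, and the difference of −0.04 ± 0.08 (SE, log2) had a 95% interval of −0.21 to 0.12. It lay at the 88.8th percentile of brightness. PDGFRL, a gene for a secreted protein that resembles the extracellular part of the receptors, was at 4.40, 4.23 and 4.32 against 4.42, 4.83 and 4.24. The mean difference of −0.18 ± 0.13 (SE, log2) was the lowest among the other 16 probe sets, but it came from interimplantation site 2, and the remaining arrays lay between 4.23 and 4.42.

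The ligand genes of the receptors did not move together. PDGFA, whose product binds receptor alpha, read 4.16, 4.21 and 4.06 in implantation sites and 4.20, 4.25 and 4.24 in interimplantation sites at its brighter probe set, 216867_s_at. The groups overlapped there by less than 0.01, and the difference was −0.09 ± 0.07 (SE, log2). Its dimmer probe set, 205463_s_at, went the other way, at 0.05 ± 0.08 (SE, log2). PDGFA thus had 1 probe set on each side of 0, and both 95% intervals included 0.

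PDGFB, which encodes the chain that binds both receptors, was read by 4 probe sets, 3 of them slightly lower and 1 slightly higher at implantation sites. The brightest, 216061_x_at, read 5.55, 5.49 and 5.38 in implantation sites and 5.63, 5.62 and 5.57 in interimplantation sites. These groups did not overlap, although only 0.01 lay between them, and the difference was −0.13 ± 0.08 (SE, log2; 95% interval −0.30 to 0.04). The suffix _x_at marks probes that may also read other transcripts. The remaining PDGFB probe sets had log2 differences of −0.09 ± 0.08 (204200_s_at), −0.08 ± 0.08 (216055_at) and 0.07 ± 0.07 (217112_at) (SE), and their groups overlapped.

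PDGFC and PDGFD, the genes of the ligands whose CUB domains must be cut off before they can bind, were dim and variable. PDGFC (218718_at) read 3.07, 3.25 and 3.09 in implantation sites and 2.87, 3.14 and 3.21 in interimplantation sites. PDGFD (219304_s_at) read 3.12, 3.34 and 3.61 against 3.12, 3.48 and 3.40. In each gene the groups overlapped over most of their range, with log2 differences of 0.06 ± 0.10 and 0.02 ± 0.13 (SE). The interval of PDGFD, −0.25 to 0.30, was the widest among the ligand probe sets.

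KIT differed little but evenly. Its probe set 205051_s_at read 4.75, 4.85 and 4.80 in implantation sites and 4.87, 4.89 and 4.88 in interimplantation sites. The groups did not overlap, with a gap of 0.02, and the difference was −0.08 ± 0.07 (SE, log2; 95% interval −0.24 to 0.07), or 1.06-fold lower. KITLG was dim at all 3 of its probe sets, between the 1.69th and the 21.0th percentile of brightness. At 207029_at it read 2.87, 2.85 and 2.86 in implantation sites and 3.15, 2.89 and 2.91 in interimplantation sites. Those groups did not overlap, by a gap of 0.02, while interimplantation site 1 accounted for much of the difference of −0.12 ± 0.08 (SE, log2). The other KITLG probe sets, 211124_s_at and 216974_at, were at −0.02 ± 0.09 and −0.06 ± 0.07 (SE, log2) with overlapping groups.

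**Figure D2:**
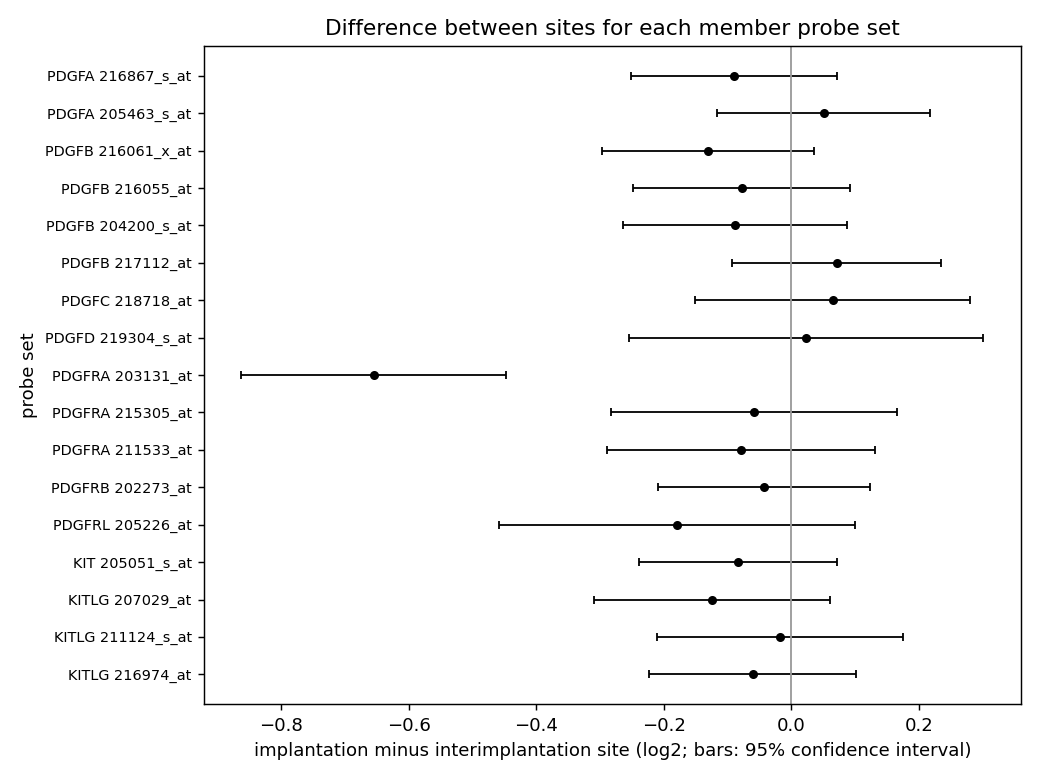
Log2 difference, implantation minus interimplantation site, for each of the 17 probe sets, with 95% confidence intervals from limma's fit (n = 3 arrays per group). PDGFRA 203131_at is at −0.66, while the other 16 lie between −0.18 and 0.07 and their intervals all include 0.

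Of the 17 member probe sets, 13 were lower and 4 higher at implantation sites by any amount, or 76.5% lower against 53.6% of all probe sets. The median difference was −0.08, and −0.07 without 203131_at, beside −0.01 over all probe sets. At an adjusted p under 0.05 in limma's fit (Benjamini-Hochberg over all probe sets) 0 members were higher, beside 0.702% of all probe sets, and 1 was lower, PDGFRA 203131_at, beside 0.356% (1.06% in either direction). The groups did not overlap in 4 members (23.5%, beside 16.0% of all probe sets). All 4 were lower and 0 higher, beside 8.3% and 7.72% of all probe sets. When probe sets were averaged by gene, 0 of the 9 genes passed. Since the contrast led to the choice of the set, nothing is read from these counts. The 95% intervals of the other 16 probe sets reached from −0.46 to 0.30 on the log2 scale, which leaves room for a fall of up to 1.37-fold or a rise of up to 1.23-fold.

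Brightness varied widely among the members. Of the 17 probe sets, 8 reached the array's median brightness, 4 of these above the third quartile of 5.18, and 4 lay under the first quartile of 3.10. The members above the third quartile were 2 probe sets of PDGFRA and 1 each of PDGFRB and PDGFB. Since probes differ in how well they bind, brightness gives no order of transcript levels between genes.

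**Figure D3:**
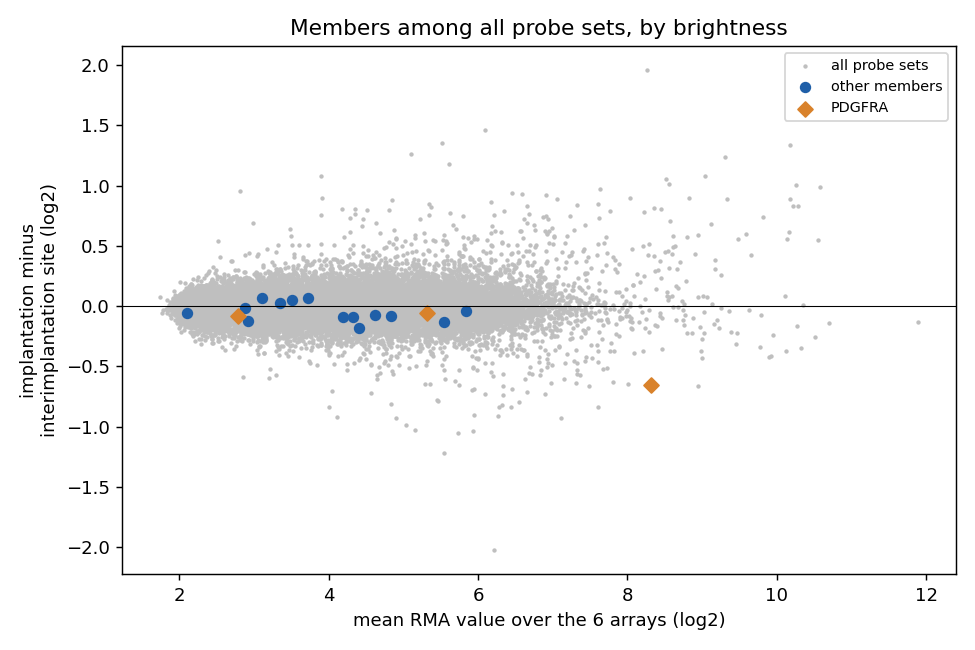
Log2 difference between the sites (vertical axis) against the mean RMA value over the 6 arrays (horizontal axis) for all 22215 probe sets in grey, the 3 PDGFRA probe sets as orange diamonds and the other members in blue. PDGFRA 203131_at stands at 8.31 and −0.66, and the remaining members lie within 0.18 of 0.

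Several genes had a pattern over the 6 arrays much like that of PDGFRA 203131_at. Likeness was measured as the Euclidean distance between values centred on their own mean, among probe sets of other genes at or above the median brightness. The nearest was REV3L, the catalytic subunit of DNA polymerase zeta, at a distance of 0.126 (r = 0.989 over 6 arrays). Its probe set 208070_s_at read 5.35, 5.47 and 5.43 in implantation sites and 5.98, 6.24 and 5.997 in interimplantation sites, a difference of −0.66 ± 0.09 (SE, log2). Interimplantation site 2 was the highest array for REV3L, as it was for PDGFRA.

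CNOT2, a subunit of the CCR4-NOT deadenylase, followed at a distance of 0.171, with a log2 difference of −0.56 ± 0.10 (SE). BTG1, an antiproliferative partner of that complex, was at 0.189 with a difference of −0.66 ± 0.08 (SE), and RANBP9, a scaffold protein, at 0.195 with −0.61 ± 0.12 (SE). KDM6A, a histone H3 lysine demethylase, was at 0.206 and −0.73 ± 0.08 (SE), and the autophagy gene WDR45 at 0.218 and −0.62 ± 0.09 (SE). All 6 had correlations with PDGFRA of 0.966 to 0.989, which the shared difference between the groups raises. All 6 passed limma's threshold, but not every call was firm. That of CNOT2 ended without any of 3 arrays (highest adjusted p = 0.108), and that of RANBP9 without any of 4 (highest 0.141). The calls of REV3L, BTG1, KDM6A and WDR45 held with single arrays left out. Averaging by gene ended those of CNOT2 and KDM6A. Among the members, the nearest was PDGFRL at 0.703, and KIT was at 0.732 with r = 0.923. The other 2 KDM6A probe sets were at −0.10 and −0.06, so in KDM6A as in PDGFRA a difference of this size was seen at 1 of 3 probe sets.

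**Figure D4:**
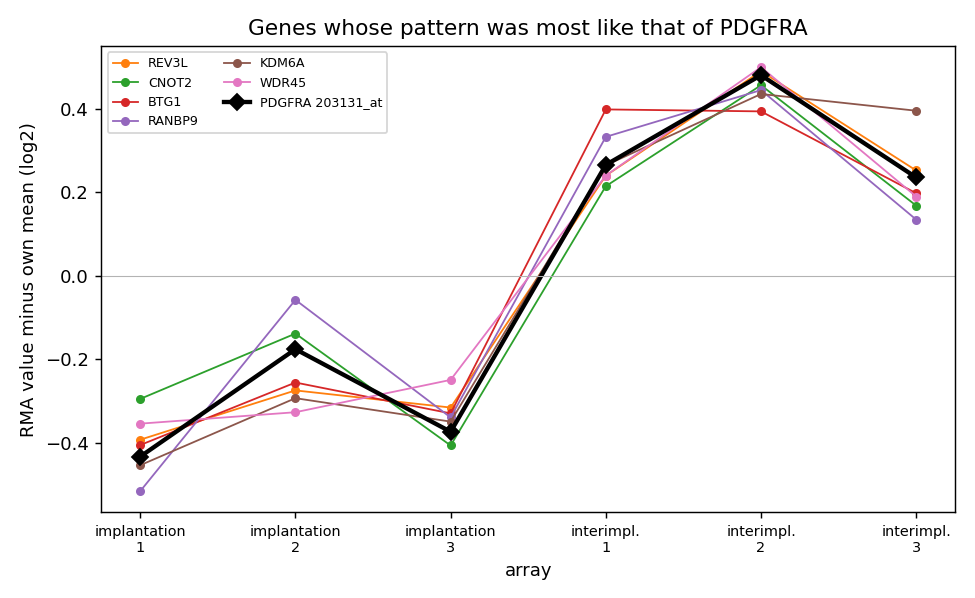
RMA values minus their own mean (log2) in the 6 arrays for PDGFRA 203131_at (black) and the 6 genes nearest to it. Each line lies under 0 in the 3 implantation arrays and above 0 in the 3 interimplantation arrays.

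Genes that relay the signal of the PDGF receptors showed mostly small differences, and 2 fell. More of their probe sets lay below 0 than above it, but over the whole array 53.6% of probe sets also lay below 0. Of 35 relay genes 25 had a probe set of their own, 56 probe sets in all. Of these 0 rose, beside 0.702% of all probe sets, and 2 fell, or 3.57% beside 0.356% (1.06% in either direction). At an unadjusted p under 0.05, 9 probe sets were lower and 1 higher. The share of all probe sets under that cut was not counted, so nothing is read from such counts here or in the lists below. The median difference of the list was −0.04, beside −0.01 over all. Its mean level was 4.27 to 4.30 in implantation and 4.34 to 4.35 in interimplantation arrays, without overlap. NCK2, an SH2 and SH3 adaptor that binds phosphorylated receptors and directs actin assembly, read 6.99, 7.23 and 6.96 in implantation sites and 7.44, 7.53 and 7.58 in interimplantation sites. The groups did not overlap, and the difference was −0.46 ± 0.09 (SE, log2; limma adjusted p = 0.0363).

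PTPN11, the gene of the phosphatase SHP2, which docks on both PDGF receptors, read 3.11, 3.12 and 3.15 in implantation sites and 3.67, 3.44 and 3.50 in interimplantation sites at probe set 209896_s_at. That is a difference of −0.41 ± 0.08 (SE, log2; limma adjusted p = 0.0345) at the 30.1th percentile of brightness. The other 4 PTPN11 probe sets lay between −0.07 and 0.05. Neither call was firm, since leaving out any one of 4 arrays ended that of NCK2 (highest adjusted p = 0.172) and leaving out any one of 6 ended that of PTPN11 (highest 0.124). The PTPN11 call was lost as well when probe sets were averaged by gene or the replicate number was a block, and the NCK2 call without probe sets that may cross-hybridise. FYN, a SRC-family kinase that binds the receptors, was at −0.51 ± 0.14, −0.39 ± 0.12 and −0.17 ± 0.07 (SE, log2) at its 3 probe sets and did not pass. The other lower probe sets at an unadjusted p under 0.05 were those of SOS2 (−0.31), STAT5B (−0.24), AKT2 (−0.23) and NCK1 (−0.21), and the higher one was that of the adaptor gene GRB2 (0.24, log2). Further probe sets of these lower genes did not share the fall. AKT2 was at 0.23 and 0.18, STAT5B at 0.01 and −0.07, and SOS2 between −0.13 and 0.07 (log2). NCK1 was at −0.11 at its bright probe set, and the one at −0.21 was dim. PLCG1, the phospholipase C gamma that PDGF receptors activate, was at −0.13 ± 0.07 and −0.05 ± 0.10 (SE, log2).

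In the remaining signalling lists 0 probe sets passed limma's threshold in either direction. Of 20 probe sets for the 9 genes that process or bind PDGF ligands, 2 had an unadjusted p under 0.05, both lower. Both were of ST14 (matriptase), a protease that cleaves PDGF-D in human cells, at −0.28 ± 0.13 and −0.18 ± 0.07 (SE, log2). The brightest ST14 probe set, 202005_at, did not share the fall, at −0.01 ± 0.085 (SE, log2). FURIN, which processes PDGF-A and PDGF-B precursors, was at −0.08 ± 0.09 (SE, log2). PLAU (urokinase), an activator of PDGF-D, had probe sets at −0.10 ± 0.10 and 0.10 ± 0.12, and PLAT, which activates PDGF-C, was dim at −0.04 ± 0.09 (SE, log2). The medians were −0.01 for this list, −0.07 for 26 probe sets of genes that damp the signal and −0.06 for 18 of early response genes. Mean levels in implantation and interimplantation arrays were 4.17 to 4.29 and 4.22 to 4.30 for the first of these lists, 3.85 to 3.88 and 3.90 to 3.99 for the second, and 4.55 to 4.57 and 4.62 to 4.67 for the third.

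Among genes that damp the signal, DUSP6, a phosphatase of ERK kinases, and DUSP1, another MAP kinase phosphatase, had the smallest p, at −0.37 ± 0.09 and −0.19 ± 0.07 (SE, log2). These 2 probe sets were the ones in the list with an unadjusted p under 0.05. DUSP6 was dim there, and its other 2 probe sets were at −0.07 and −0.06. The other DUSP1 probe set was brighter and went the other way, at 0.10 ± 0.11 (SE, log2). In the early response list, JUN was lower by −0.41 ± 0.10 and −0.28 ± 0.07 (SE, log2) at its 2 probe sets with the smallest p, with limma adjusted p = 0.0907 and 0.111. At 201464_x_at JUN passed with the replicate number as a block (limma adjusted p = 0.0451) and without implantation site 2 (0.0458). Of the list, 4 probe sets had an unadjusted p under 0.05, and all 4 were lower. The list of other class III receptors and their ligands had 8 probe sets for 4 genes, 1 of them lower and 0 higher at an unadjusted p under 0.05, with a median of −0.02. CSF1R, the receptor of macrophage colony-stimulating factor, was at 0.05 ± 0.08, and FLT3 at 0.04 ± 0.09 (SE, log2). CSF1, a CSF1R ligand, was at −0.30 ± 0.10 and −0.18 ± 0.09 (SE, log2) at the 2 of its 4 probe sets with the smallest p.

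Cell markers gave the setting in which PDGFRA was read. Beside the counts of these lists, 0.702% of all probe sets rose and 0.356% fell. Of 41 probe sets for 16 fibroblast and stroma genes, 1 rose and 0 fell, the median was 0.01, and at an unadjusted p under 0.05 there were 6 higher and 2 lower probe sets. The one that rose was COL1A1 217430_x_at, the fibrillar collagen gene, at 0.56 ± 0.09 (SE, log2; limma adjusted p = 0.00955), opposite in direction to PDGFRA. Its other 3 probe sets were at 0.27, 0.24 and 0.05, and the call was lost without implantation site 1 (adjusted p = 0.0513), after repeated quantile normalization and when probe sets were averaged by gene. Among further stroma genes, the intermediate filament gene VIM was at −0.22 ± 0.11 and the proteoglycan gene DCN at −0.25 ± 0.10, while COL3A1 was at 0.26 ± 0.09 (SE, log2, brightest probe sets). Over the whole list the mean level was 4.83 to 4.88 in implantation and 4.79 to 4.86 in interimplantation arrays, which overlap. Its members went both ways, and their part in the PDGFRA difference was not tested.

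The pericyte list, which bears on PDGFRB, had 0 of 14 probe sets past the threshold, 0 at an unadjusted p under 0.05 and a median of 0.01. Its mean level was 4.22 to 4.29 in implantation and 4.20 to 4.29 in interimplantation arrays. RGS5, a pericyte regulator of G proteins, was at 0.17, 0.13 and −0.01 at its 3 probe sets, and KCNJ8, a potassium channel gene of pericytes, at 0.15 and −0.03 (log2). The adhesion molecule gene MCAM was at −0.14, NOTCH3 at −0.08 and 0.03, and the proteoglycan gene CSPG4 at 0.05 and −0.03 (log2), so the list went both ways. Of the markers of cells that carry KIT, 0 of 12 mast cell probe sets and 0 of 6 probe sets for interstitial cells of Cajal passed, with medians of −0.06 and −0.11. Of the mast cell probe sets 0 had an unadjusted p under 0.05, and the smallest p were those of the tryptase gene TPSAB1, at −0.13 ± 0.08 and 0.11 ± 0.09 (SE, log2). In the other list ETV1 had the smallest p at −0.16 ± 0.07, the 1 with an unadjusted p under 0.05, and −0.11 ± 0.07 (SE, log2). The brightest ETV1 probe set, 206501_x_at, went the other way, at 0.08 ± 0.08 (SE, log2). Platelet markers, from cells that store PDGF, had 0 of 8 past the threshold and 0 at an unadjusted p under 0.05. Their median was −0.03, with GP9, a platelet glycoprotein gene, at 0.13 ± 0.07 and the chemokine gene PF4 at −0.12 ± 0.08 (SE, log2).

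Other cell markers moved with PDGFRA in part. In the smooth muscle list 2 of 26 probe sets fell (7.69%, beside 0.356% of all probe sets) and 0 rose. The 2 were those of ACTG2 (−0.80 ± 0.17 SE, limma adjusted p = 0.0488) and TAGLN (−0.56 ± 0.11 SE, limma adjusted p = 0.0369). At an unadjusted p under 0.05, 7 probe sets were lower and 0 higher. The share of all probe sets under that cut was not counted, so nothing is read from such counts in these lists. Those that did not pass were of MYLK (−0.53), TPM2 (−0.47), MYH11 (−0.35), CNN1 (−0.23) and CALD1 (−0.19), while the brightest probe sets of ACTA2 and MYH11 were at 0.15 and 0.00 (log2). Leaving out any one of 5 arrays ended each of these calls (highest adjusted p = 0.146 and 0.158). The ACTG2 call ended under 5 further settings, among them median centring and the replicate block. The list's mean level was 4.13 to 4.17 in implantation and 4.24 to 4.32 in interimplantation arrays, without overlap, with a median difference of −0.02. Lower mean levels without overlap were also seen in the member, relay, signal damping, early response, epithelial, endothelial and interstitial cell of Cajal lists. They were thus not particular to muscle. The mean level of the last of these lists was 3.89 to 3.96 in implantation and 3.99 to 4.03 in interimplantation arrays. No list mean was set beside one for the whole array. Among epithelial markers 1 of 18 fell (5.56%, beside the same 0.356%), the transcription factor gene SOX17 (−0.78 ± 0.12 SE, limma adjusted p = 0.0103). At an unadjusted p under 0.05, 5 epithelial probe sets were lower and 0 higher. The SOX17 call was lost without implantation site 1 (adjusted p = 0.0639). The mean level of the epithelial list was 4.01 to 4.09 against 4.18 to 4.22. The part of muscle and epithelium in the PDGFRA difference was not tested.

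The leukocyte list had 1 fall in 19 (5.26%, beside 0.356% of all probe sets), that of SPI1 (−0.49 ± 0.10 SE, limma adjusted p = 0.0440), a myeloid transcription factor. SPI1 did not pass when any one of 5 arrays was left out (highest adjusted p = 0.161) or under 4 further settings, among them median centring. In this list 3 probe sets were lower and 0 higher at an unadjusted p under 0.05. Its mean level was 4.23 to 4.30 in implantation and 4.30 to 4.33 in interimplantation arrays. CSF1R stands in this list and among the class III receptors. In the endothelial list 0 of 16 probe sets passed and 0 had an unadjusted p under 0.05, with a mean level of 4.07 to 4.08 against 4.11 to 4.17. The VEGF receptor gene KDR was at −0.19 ± 0.09 there and the endoglin gene ENG at −0.14 ± 0.07 (SE, log2). In the trophoblast and embryo list 0 of 11 passed and 0 had an unadjusted p under 0.05, with a mean level of 4.09 to 4.10 against 4.09 to 4.11, so the ranges overlapped. Its smallest p were those of the transcription factor genes GATA3 (−0.08 ± 0.08) and ELF5 (−0.07 ± 0.08) (SE, log2). The part of these cells in the PDGFRA difference was not tested.

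**Figure D5:**
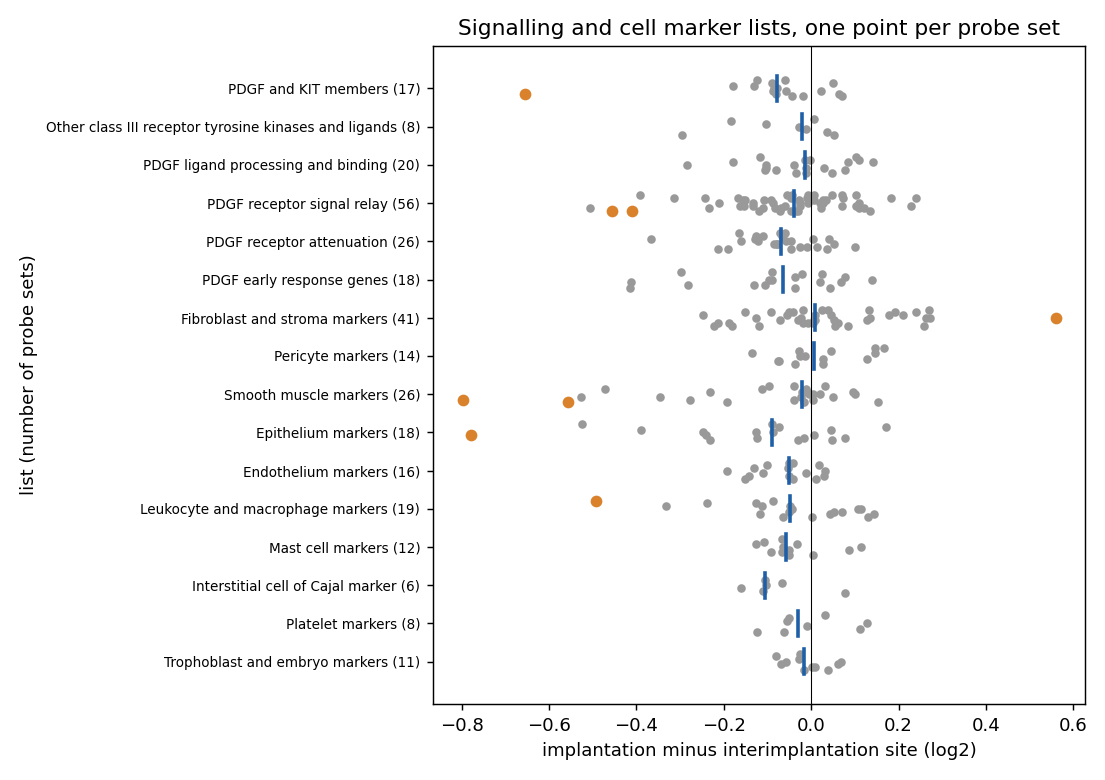
Log2 difference, implantation minus interimplantation site, of each probe set in the member set, the 5 signalling lists and the 10 cell marker lists, with blue bars at list medians and orange points for probe sets past limma's threshold. In the 5 signalling lists the points past the threshold are NCK2 and PTPN11, both lower, and COL1A1 is the one higher point past it.

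Of 2 control genes read as a sign of RNA quality, actin separated the groups and GAPDH did not. The actin control probe sets for the 3′ end minus those for the 5′ end were at −2.08 ± 0.22 in implantation and −1.70 ± 0.15 in interimplantation arrays (log2, SD, n = 3), without overlap (exact two-sided permutation p = 0.1, the smallest that 3 against 3 arrays allow). For GAPDH the values were −0.20 ± 0.16 and 0.13 ± 0.17 (log2, SD, n = 3), which overlapped (exact two-sided permutation p = 0.2). These controls are human probe sets too, and in every array the 5′ end of actin read brighter than the 3′ end. How well they match hamster transcripts was not tested, so their level cannot be read as RNA quality alone. The part of these control differences in the PDGFRA difference was not tested.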

How the data were processed

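Total RNA from uterus was labelled and hybridised to an Affymetrix human array, 1 array per sample. The log2 values that the authors deposited come from RMA, and Partek 6.6 is named in the submitters' processing notes. RMA brings arrays to one distribution, so a change in total RNA is not visible. Neither its settings nor the log base is given in the sources used here, and the base was read from the range of values.

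Of 22283 probe sets, 68 controls were left out and 22215 fitted with limma 3.58.1 in R 4.3.3 (lmFit, eBayes, 2 groups, no covariate), two-sided, with Benjamini-Hochberg adjustment over all of them and a threshold of 0.05. The fit was tested on simulated data. Platform annotation gave 1 gene to 19065 probe sets, several to 1043 and none to 2107. All 9 member symbols exist in the hamster RefSeq annotation (BCM_Maur_2.0). List counts are probe sets; list levels are mean log2 values over a list's probe sets.

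Named were all members, list probe sets past the threshold or otherwise the 2 with the smallest p, and the 6 genes nearest to PDGFRA. Further genes were named after their values were seen. The members and lists were chosen with earlier results of these data known. The number of arrays limits the precision.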

Additional observations from a re-analysis of the deposited data

How the results depend on the processing

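The PDGFRA 203131_at difference kept its direction under all 15 alternatives, but several of them could not change it. The median brightness cut, the intensity trend, the replicate block and leaving out cross-hybridising probe sets alter only the variance or the tested set. The difference stayed at −0.66 there. It lay between −0.58 and −0.73 with single arrays left out and at −0.76 after repeated quantile normalization. The −0.26 seen when probe sets were averaged by gene is a different quantity, since it takes in the other PDGFRA probe sets. With that average 0 members passed, and with single arrays left out 1 did. Among 216 repeats for the other 16 member probe sets 214 moved by less than the spread between arrays. The other 2 moved further, both with that average (PDGFA −0.02, PDGFB −0.06). These repeats include the settings that cannot change a difference. Over the whole array 156 probe sets were higher and 79 lower, with 83 to 140 and 33 to 90 when single arrays were left out, 133 lower with array weights, 73 and 26 genes with gene averages, and 37 and 20 without probe sets that may cross-hybridise, where fewer were tested. The 2 lower calls in the signalling lists became 0 to 2 with single arrays left out, 1 above the median brightness, 1 with gene means, 3 with the replicate block and 0 without cross-hybridising probe sets. In the marker lists the 1 higher call became 0 to 1 with single arrays left out, and 0 after repeated quantile normalization and with gene means. It was also 0 without cross-hybridising probe sets, where COL1A1 217430_x_at was removed by the filter and not tested. The 4 lower calls in the marker lists became 1 to 5 with single arrays left out, 2 after cyclic loess, 2 after median centring and 2 with gene means. They became 6 with an intensity trend and 6 with array weights. Without cross-hybridising probe sets they became 1, and TAGLN 205547_s_at was not tested there. Of 449 repeats for 33 named list and pattern probe sets 397 kept their side of the threshold, 50 lost a call, 2 gained one, and 0 calls turned direction. The actin and GAPDH 3′ minus 5′ differences of −0.38 and −0.34 ranged from −0.46 to −0.25 and −0.43 to −0.25. The causes of these shifts were not tested.

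Replicate numbers are shared by the groups, but no label says that a number marks one animal, so the numbers were not taken as pairs. Deviations of same-numbered arrays correlated at 0.0541, −0.00247 and 0.0704, and those of differently numbered arrays at −0.0694 to 0.0175. With 3 arrays per group, these values cannot decide whether the numbers mark pairs. A block for the replicate number cannot change a difference in this balanced layout, so PDGFRA 203131_at stayed at −0.66. With that block, 159 probe sets were higher and 93 lower. Dim members limit what can be seen, since a human probe set near background can hide a change.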
